A study of Homo sapiens with 6 samples.

Results

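The fibroblast growth factor (FGF) system was followed through 10 genes of an RNA-seq experiment in HK-2 cells, an immortalized human renal proximal tubule epithelial line. The genes were picked by symbol from the deposited count table. They are the ligands FGF1, FGF2, FGF5 and FGF18, the intracellular factor FGF11, the receptors FGFR1, FGFR2, FGFR3 and FGFR4, and the carrier protein FGFBP1, which makes 10 of the 31831 genes listed. Control cells carried the control lentivirus with the empty vector (HG-NC), and the other cells carried a lentivirus for hnRNP-F, an RNA-binding protein, in vector LV5 (HG-OE). Both groups were kept in 30 mM glucose for 72 h, with 3 libraries from parallel wells in each, so HG-NC is a virus-treated, high-glucose control and not an untreated cell. Wells of 1 cell line were compared, and p-values measure the spread between these wells.

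Secreted FGFs bind receptor tyrosine kinases at the cell surface together with heparan sulfate, a sulfated sugar chain on proteoglycans. The activated receptor recruits the adaptor FRS2 and drives the RAS to MAPK cascade, phospholipase C gamma and PI3 kinase, and the cascade induces its own inhibitors, among them the Sprouty proteins and dual-specificity phosphatases. In the kidney, FGF signaling takes part in the formation of nephrons and collecting ducts, and the endocrine factor FGF23 acts on the proximal tubule through FGF receptors with the co-receptor Klotho.

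HNRNPF (ENSG00000169813.17), the gene of the overexpressed protein, rose from 311 ± 7.23 CPM (counts per 1e6 counted read pairs) in HG-NC to 435 ± 14.9 in HG-OE (mean ± SD, n = 3; log2 fold change 0.48). The sources used here do not settle which species' coding sequence the virus carried, so these counts need not hold all transgene transcripts. Libraries held 25507595 to 29444841 counted read pairs, and 3 counts, the limit that a count of 0 allows, came to 0.102 to 0.118 CPM. Of 5 epithelial markers, KRT8, KRT18, KRT19 and EPCAM were present, as was PAX8. The remaining epithelial marker, CDH1, was low, with 6, 4 and 2 counts in HG-NC against 5, 10 and 384 in HG-OE. The proximal tubule genes LRP2 and HNF4A were at 0 in all HG-NC libraries, and CUBN averaged 0.534 CPM there. HG-OE replicate 3 stood apart from the rest. It held 4359 counts of ALB, the plasma protein albumin, against 0 to 78 in the other 5 libraries. It was also the highest library for 11 of 12 hepatocyte markers and 11 of 12 squamous epithelium markers. Both lists were written knowing that such transcripts had been reported in this library, so these marker counts describe it and are no independent evidence. Results that rest on this library are therefore given with and without it.

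Of the 10 genes, 6 were higher and 2 were lower in HG-OE with an adjusted p under 0.05 (edgeR quasi-likelihood test, Benjamini-Hochberg over 17142 genes), and FGF18 and FGFR2 were not called. Among all genes tested, 51.8% were called, 25.9% higher and 25.9% lower, so that a call alone was common in this comparison. A call with at least a 2-fold change was less common, at 3.69% higher and 2.13% lower of all genes tested, and 4 of the 10 genes (FGF1, FGFR1, FGFR3 and FGFBP1) passed it upward and FGF2 downward. Each of the 10 had at least 12 counts in every library. HG-NC and HG-OE did not overlap for 8 of the 10 genes, against 59.0% of all genes tested. With 3 libraries against 3, the exact two-sided permutation test gave its smallest possible p, 0.1, for each of these 8 genes. The median log2 fold change was 0.72 over the 10 genes (0.37 without HG-OE replicate 3) and 0.011 over all genes tested.

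**Figure D1:**
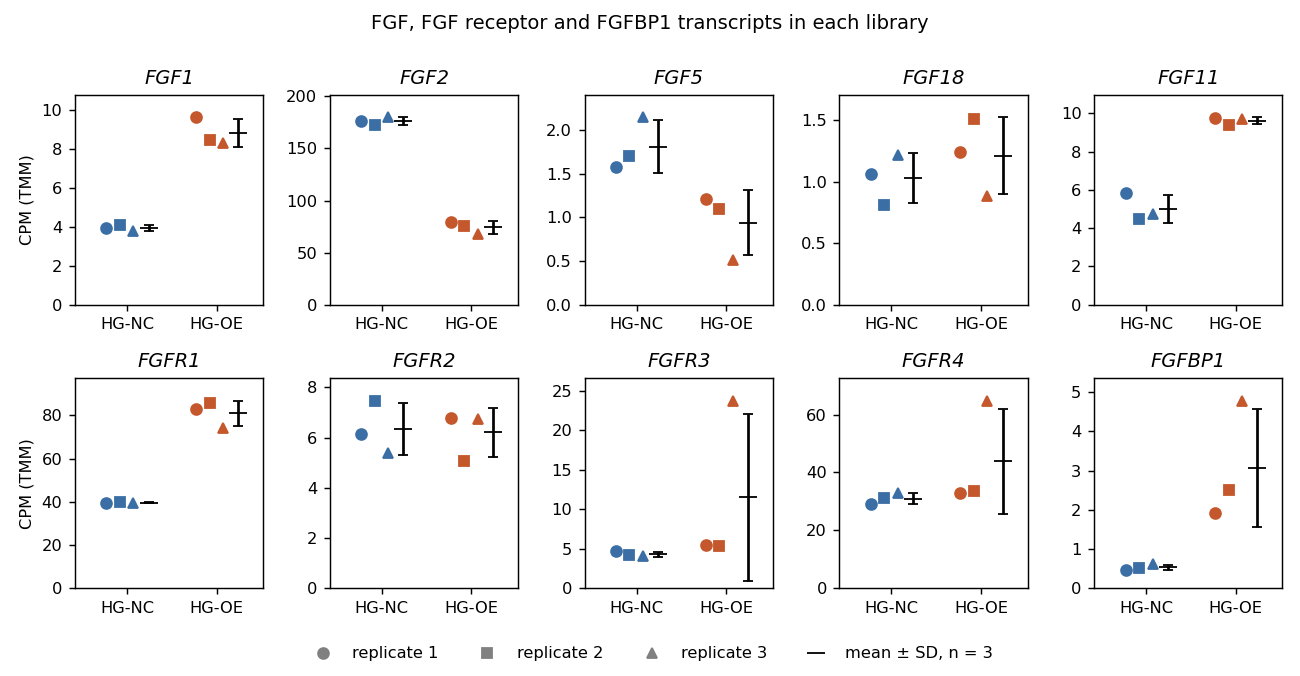
CPM (TMM-normalized, linear axes from 0) of each gene in the 3 HG-NC and 3 HG-OE libraries, with symbols for replicates and the mean ± SD (n = 3) beside them. FGF2 fell from 172 to 180 CPM down to 67.5 to 79.6, FGF1 and FGFR1 rose in every HG-OE library, and the rises of FGFR3 and FGFR4 stood mainly in HG-OE replicate 3.

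Among the ligands, FGF2 (basic FGF, a heparin-binding mitogen that leaves cells without a signal peptide) carried most of the signal and fell. FGF2 (ENSG00000138685.17) lies on the plus strand of chromosome 4 of GRCh38, from 122826682 to 122898236. Its level was 176, 172 and 180 CPM in replicates 1, 2 and 3 of HG-NC, and 79.6, 75.7 and 67.5 in those of HG-OE. Every HG-OE library was under every HG-NC library, and the gap was wide beside the spread within either group, 176 ± 3.90 against 74.3 ± 6.19 CPM (mean ± SD, n = 3). The log2 fold change was -1.25 (standard error 0.0539, 95% confidence interval -1.36 to -1.13, edgeR adjusted p = 1.11e-09), the smallest adjusted p of the 10 genes. In bulk RNA, fewer cells that express a gene and less RNA of it per cell cannot be told apart. Without HG-OE replicate 3, the log2 fold change was -1.18.

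The start of FGF2 is shown because this was the gene with the firmest change. RefSeq (GRCh38.p14) gives 1 start, and the 300 bases around it, chr4:122826581-122826880 on the plus strand, are printed with GC boxes (GGGCGG on either strand) in capitals.
FGF2: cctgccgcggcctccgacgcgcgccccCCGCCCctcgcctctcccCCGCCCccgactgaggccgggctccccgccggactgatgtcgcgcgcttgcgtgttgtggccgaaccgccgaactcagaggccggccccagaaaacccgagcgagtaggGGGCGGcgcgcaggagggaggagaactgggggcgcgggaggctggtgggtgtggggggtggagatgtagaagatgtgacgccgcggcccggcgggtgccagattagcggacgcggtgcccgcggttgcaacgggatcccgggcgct
The window was 74.7% G and C, against a median of 58.7% over 35116 such windows, and held 3 GC boxes. A GC box was found in 45% of all windows. Neither TGAGTCA, the AP-1 site, nor TATAAA, the TATA box, was found, motifs which 4.95% and 11.5% of all windows held. A match of letters is a description and does not show that a factor binds.

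FGF1 (acidic FGF, a ligand of all 4 receptors, which also lacks a signal peptide) moved the other way. The gene (ENSG00000113578.18, chromosome 5, 142592178 to 142698070, minus strand) had 3.93, 4.10 and 3.76 CPM in HG-NC against 9.61, 8.45 and 8.30 in HG-OE. All HG-OE libraries lay above all HG-NC libraries, at 8.79 ± 0.721 against 3.93 ± 0.172 CPM (mean ± SD, n = 3). On the log2 scale, FGF1 rose by 1.16 (standard error 0.119, 95% confidence interval 0.91 to 1.42, edgeR adjusted p = 2.57e-06), and 1.20 without HG-OE replicate 3.

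FGF5 and FGF18 were ligands of low level. FGF5 (ENSG00000138675.17, chromosome 4, 80266639 to 80336680, plus strand), known as a regulator of the hair cycle, had 40, 46 and 60 counts in HG-NC against 35, 32 and 15 in HG-OE. In CPM, the groups did not overlap, at 1.57, 1.70 and 2.15 against 1.21, 1.10 and 0.512, and HG-OE replicate 3 was the lowest library. The log2 fold change was -0.94 (standard error 0.300, 95% confidence interval -1.59 to -0.30, edgeR adjusted p = 0.0170), and -0.65 without HG-OE replicate 3. Without HG-NC replicate 3, FGF5 was no longer called (-0.80, edgeR adjusted p = 0.0832, with 0.0105 to 0.0832 over the alternatives).

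For FGF18 (ENSG00000156427.8, chromosome 5, 171419647 to 171457626, plus strand), a secreted factor of bone and lung development, the groups overlapped. Its counts were 27, 22 and 34 in HG-NC against 36, 44 and 26 in HG-OE. FGF18 had 0.23 on the log2 scale (95% confidence interval -0.38 to 0.85, edgeR adjusted p = 0.517), an interval that reaches neither a 2-fold rise nor a 2-fold fall.

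FGF11 belongs to the FGF homologous factors, which stay inside the cell and are known as partners of voltage-gated sodium channels. The gene (ENSG00000161958.11, chromosome 17, 7438273 to 7444937, plus strand) had 5.82, 4.47 and 4.72 CPM in HG-NC against 9.75, 9.41 and 9.70 in HG-OE. The 3 HG-OE libraries were close to each other and all above HG-NC, for a rise of 0.94 on the log2 scale (standard error 0.120, 95% confidence interval 0.69 to 1.20, edgeR adjusted p = 1.90e-05), just under a 2-fold change. A long noncoding RNA of the same strand, ENSG00000262880, shares 5809 bases of its span with FGF11. Its counts were 115, 106 and 92 in HG-NC against 228, 203 and 182 in HG-OE, with log2 fold change 0.84 (edgeR adjusted p = 2.83e-04), and how reads of the shared stretch were split between the pair is not given in the sources used here.

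The make-up of the ligand pool, compared per transcript length as FPKM (fragments scaled to transcript length and library size, the authors' values), shifted with these changes. The sum of FGF1, FGF2, FGF5 and FGF18 was 24.7 ± 0.693 FPKM in HG-NC against 11.9 ± 1.10 in HG-OE (mean ± SD, n = 3). FGF2 held 90.9 ± 0.444% of the FPKM of the 5 FGFs in HG-NC against 71.2 ± 0.379% in HG-OE. The intracellular FGF11 is among these 5. FGF12 (1.48 FPKM in HG-NC, 1.15 in HG-OE) and FGF21 (0.373 and 0.193) are not, so this is no share of all FGFs expressed. The ratio of FGF2 to FGF1 was 33.1, 30.7 and 35.1 in HG-NC against 6.09, 6.59 and 5.99 in HG-OE. These 3 measures did not overlap between the groups (exact two-sided permutation p = 0.1, the smallest possible), and FGF2 remained the most abundant ligand in every library. FPKM add up all transcripts of a gene and do not give protein.

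Of the receptors, FGFR1 rose in every HG-OE library. FGFR1 (ENSG00000077782.22, chromosome 8, 38400215 to 38468834, minus strand), the main receptor of mesenchymal cells, had 39.6, 39.7 and 39.6 CPM in HG-NC against 82.8, 85.5 and 74.2 in HG-OE. The HG-NC libraries were nearly equal, and each HG-OE library was close to double that level or above, at 80.8 ± 5.90 CPM (mean ± SD, n = 3). The log2 fold change was 1.03 (standard error 0.0562, 95% confidence interval 0.91 to 1.15, edgeR adjusted p = 9.51e-09). It was 1.09 without HG-OE replicate 3 and, just under a 2-fold change, 0.99 without HG-OE replicate 2.

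FGFR2 (ENSG00000066468.24, chromosome 10, 121478332 to 121598458, minus strand), whose epithelial splice form binds ligands from mesenchyme, was not called. Its level was 6.14, 7.46 and 5.40 CPM in HG-NC against 6.79, 5.08 and 6.73 in HG-OE, with the groups intermixed. Its log2 fold change was -0.031 (95% confidence interval -0.36 to 0.29, edgeR adjusted p = 0.880). Splice forms were not measured by these counts per gene.

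FGFR3 and FGFR4 were called higher, and HG-OE replicate 3 set the size of the FGFR3 rise and the FGFR4 call. FGFR3 (ENSG00000068078.20, chromosome 4, 1793293 to 1808872, plus strand), a restraint on growth in cartilage, had 4.68, 4.17 and 4.08 CPM in HG-NC against 5.51, 5.32 and 23.7 in HG-OE. HG-OE replicate 3 thus held 4.38 times the mean of the other HG-OE libraries, which themselves lay above all HG-NC libraries. With all libraries the log2 fold change was 1.42 (standard error 0.447, edgeR adjusted p = 0.0163), and without that library it was 0.33 (standard error 0.143, edgeR adjusted p = 0.0460, with 0.00157 to 0.370 over the alternatives).

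FGFR4 (ENSG00000160867.15, chromosome 5, 177086905 to 177098144, plus strand) is the FGF19 receptor of hepatocytes, where it acts with the co-receptor KLB. Its level was 29.0, 31.1 and 33.0 CPM in HG-NC against 33.0, 33.7 and 64.8 in HG-OE. HG-OE replicates 1 and 2 stood at the upper edge of the HG-NC range, and HG-OE replicate 3 was at 1.94 times their mean. The log2 fold change was 0.50 (standard error 0.194, edgeR adjusted p = 0.0447) with all libraries and 0.10 (standard error 0.0658, edgeR adjusted p = 0.180, with 0.00884 to 0.393 over the alternatives) without HG-OE replicate 3, where FGFR4 was not called. FGFR3 and FGFR4 also missed the threshold with DESeq2 (adjusted p = 0.0914 and 0.216) and when any HG-NC library was left out.

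**Figure D2:**
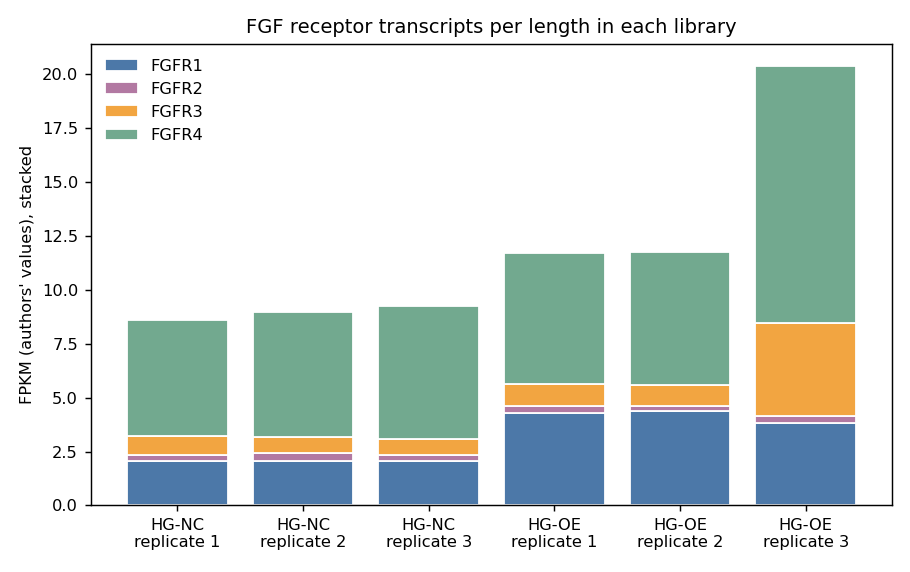
FPKM (authors' values, linear axis from 0) of FGFR1 to FGFR4 stacked for each of the 6 libraries. The sum was 8.59 to 9.25 in HG-NC, 11.7 and 11.8 in HG-OE replicates 1 and 2, where the FGFR1 part had grown, and 20.4 in HG-OE replicate 3, where FGFR3 and FGFR4 had grown as well.

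Per length, FGFR4 was the most abundant of the 4 receptors in all 6 libraries. FGFR1 made up 24.0%, 23.0% and 22.4% of the summed FPKM of the 4 receptors in HG-NC, 36.5% and 37.2% in HG-OE replicates 1 and 2, and 18.7% in HG-OE replicate 3. FGFR3 held 8.22% to 10.0% in HG-NC, 8.62% and 8.26% in HG-OE replicates 1 and 2, and 21.2% in HG-OE replicate 3. The ratio of FGFR4 to FGFR1 was 2.61, 2.80 and 2.98 in HG-NC against 1.43, 1.41 and 3.12 in HG-OE. The FGFR4 share went from 62.6%, 64.5% and 66.6% in HG-NC down to 52.1%, 52.5% and 58.4% in HG-OE. For FGFR2, the shares were 3.38%, 3.91% and 2.81% against 2.73%, 2.04% and 1.57%. The groups lay apart for both shares, narrowly for FGFR2 (exact two-sided permutation p = 0.1, the smallest possible). Receptor make-up also differed within the HG-OE group. HG-OE replicate 3 fell outside the range of the others for the FGFR1 and FGFR3 shares and for the ratio of FGFR4 to FGFR1.

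FGFBP1 had the largest fold change of the 10 genes. FGFBP1 is a secreted carrier that frees FGFs from the heparan sulfate matrix. The gene (ENSG00000137440.5, chromosome 4, 15935577 to 15938740, minus strand) had 12, 14 and 17 counts in HG-NC against 56, 73 and 140 in HG-OE. In CPM these were 0.472, 0.517 and 0.608 against 1.93, 2.51 and 4.78, so the lowest HG-OE library lay above the highest of HG-NC, and HG-OE replicate 3 was at 2.15 times the mean of the other HG-OE libraries. The log2 fold change was 2.52 (standard error 0.342, 95% confidence interval 1.79 to 3.26, edgeR adjusted p = 3.34e-05). Without HG-OE replicate 3, FGFBP1 stayed called 2-fold, at 2.05 (standard error 0.298).

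The start of FGFBP1 is shown beside that of FGF2 as the gene with the largest rise. RefSeq (GRCh38.p14) gives 1 start, with the window chr4:15938691-15938990, printed 5′ to 3′ on the minus strand.
FGFBP1: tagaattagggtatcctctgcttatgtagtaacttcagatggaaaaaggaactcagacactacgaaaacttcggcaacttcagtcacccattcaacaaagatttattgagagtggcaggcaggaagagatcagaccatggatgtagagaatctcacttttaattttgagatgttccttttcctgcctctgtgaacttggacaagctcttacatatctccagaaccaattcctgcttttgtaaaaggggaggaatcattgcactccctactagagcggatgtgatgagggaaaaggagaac
This window was 42% G and C, under the median of all windows, and none of the 3 motifs was found, so no letters are in capitals.

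**Figure D3:**
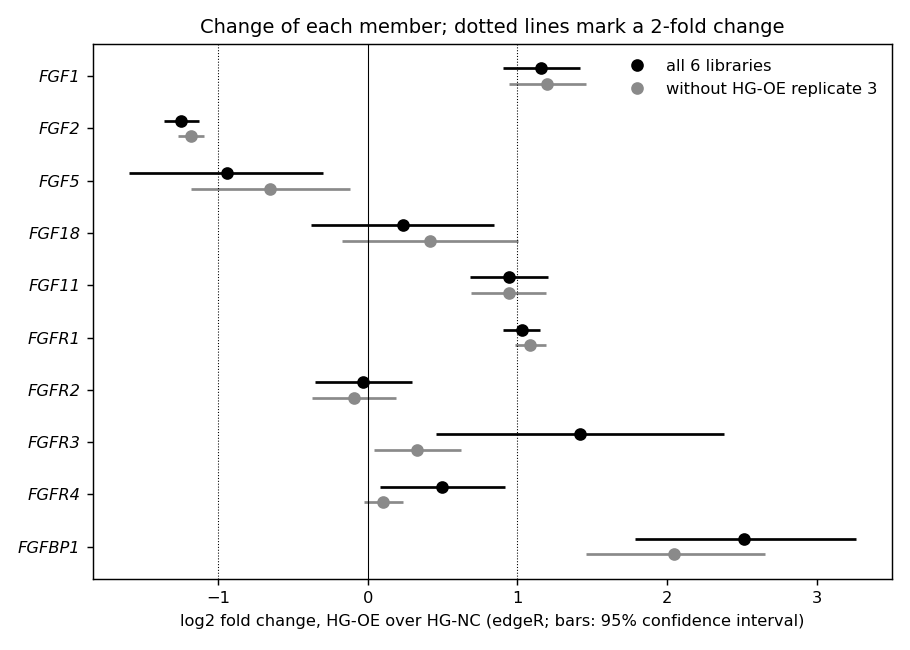
Log2 fold change of HG-OE over HG-NC (x axis, edgeR) for each of the 10 genes, with 95% confidence intervals as bars, for all 6 libraries (black) and without HG-OE replicate 3 (grey). FGF1, FGF2, FGF11 and FGFR1 moved little without that library, while FGFR3 fell from 1.42 to 0.33 and FGFR4 from 0.50 to 0.10.

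Without HG-OE replicate 3, 5 of the 10 genes were called higher and 2 lower, where 53.9% of 17366 genes tested were called. The 2-fold calls were then FGF1, FGFR1 and FGFBP1 upward and FGF2 downward, against 6.24% of genes tested in both directions. FGFR3, FGFR4 and FGFBP1 were the 3 of the 10 genes with their highest level in that library. Summed over 11 hepatocyte markers (without SERPINA1, which made up most of the sum in the other libraries), the level was 2.87, 3.03 and 11.1 CPM for HG-NC, 6.17 and 5.94 in HG-OE replicates 1 and 2, and 341 in HG-OE replicate 3. Over 11 squamous markers (without PERP, for the same reason), it was 18.0 to 19.9 CPM for HG-NC, 17.9 and 16.3 in HG-OE replicates 1 and 2, and 91.4 in HG-OE replicate 3. The squamous markers KRT5, KRT14, KRT6A and TP63 were at 0 in every HG-NC library. Of 4 fibroblast and endothelial markers tested, PDGFRB and VWF were called 2-fold higher. PDGFRB had 16, 12 and 8 counts in HG-NC against 65, 64 and 59 in HG-OE. For VWF the counts were low, at 7, 6 and 7 against 33, 28 and 12. COL1A1 and LUM were not called, with log2 fold changes of -0.23 and -0.25. Without HG-OE replicate 3, LUM was called lower (-0.40, edgeR adjusted p = 2.14e-05). The summed level of the fibroblast and endothelial list was 36.3 to 39.4 CPM over the HG-NC libraries and 33.3 to 38.1 over HG-OE. The part of cells with hepatocyte or squamous markers in the FGFR3, FGFR4 and FGFBP1 levels was not tested. Removal of SERPINA1 and PERP from the sums was chosen after their values were seen.

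**Figure D4:**
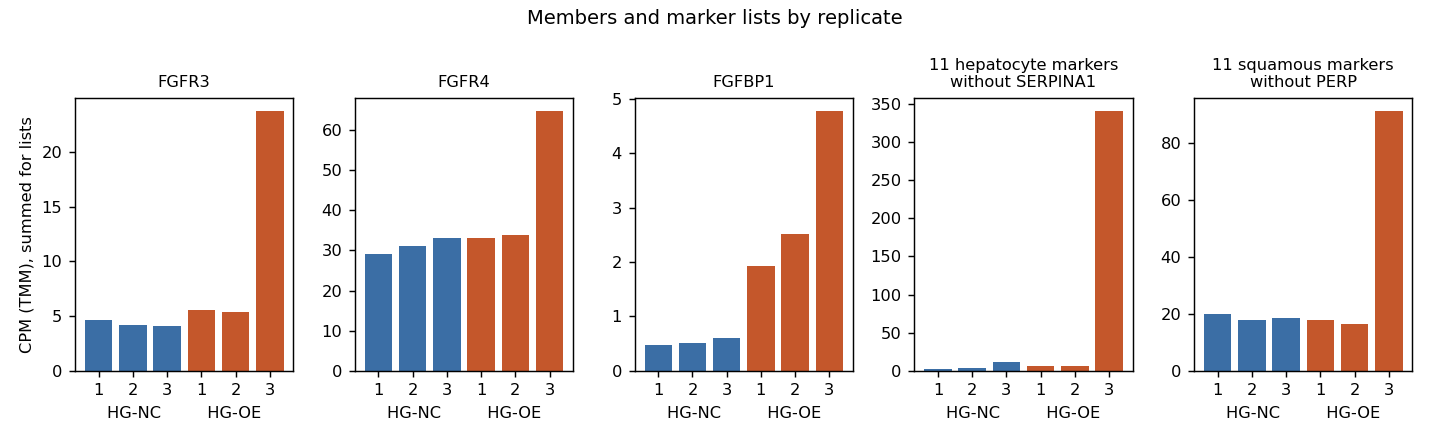
Levels by library (CPM, linear axes from 0, HG-NC blue and HG-OE orange, replicates 1 to 3) of FGFR3, FGFR4 and FGFBP1 and of the summed hepatocyte and squamous markers. HG-OE replicate 3 was the highest library in each panel, and FGFBP1 was also higher in HG-OE replicates 1 and 2, at 1.93 and 2.51 CPM, than in HG-NC.

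Ordered per length in HG-NC, FGF2 led with 23.3 FPKM, followed by FGFR4 with 5.77 and FGFR1 with 2.06, each above the next in all libraries. FGF11, FGFR3 and FGF1 came next at 0.883, 0.797 and 0.707 FPKM, with FGF11 and FGFR3 not separated. FGF18, FGFBP1, FGFR2 and FGF5 followed at 0.46 down to 0.27 FPKM, and neighbours in this order overlapped. In HG-OE, FGF2 (9.70 FPKM) and FGFR4 (8.06) were not separated in every library. FGFR4 was above FGF2 only in HG-OE replicate 3, at 11.9 against 8.81 FPKM. FGFR1 (4.16 FPKM) was above FGFBP1 (2.01), FGF11 (1.68) and FGF1 (1.56) in every library. Within the order FGFR1, FGFR3, FGFBP1, FGF11 and FGF1, the ranges of neighbours overlapped. The place of FGFR3 rested on HG-OE replicate 3, with 1.01, 0.97 and 4.33 FPKM in HG-OE replicates 1, 2 and 3. In HG-OE replicates 1 and 2, FGFR3 was below FGFBP1, FGF11 and FGF1. FGF1 was above FGF18 in every library, and FGF5 was the lowest at 0.14. FGFBP1 had moved from among the 4 lowest genes to the middle of the order.

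Neighbouring genes shifted as well in some places. Within 10 Mb of FGF2, the median log2 fold change of 39 other genes with at least 100 counts on average was -0.37, and around FGF1 it was 0.35 over 122 genes. Around FGFR4 it was 0.47 over 86 genes, near the 0.50 of FGFR4 itself, and around FGF5 it was -0.34. It was 0.026 around FGFR1, 0.048 around FGFR3 and -0.13 around FGFBP1. With these medians taken off, FGF2 was at -0.88 and FGF1 at 0.82, both under a 2-fold change, FGFR4 was at 0.029, and FGFR1, FGF11, FGFR3 and FGFBP1 were at 1.00, 1.06, 1.37 and 2.65. Copy number was not measured here.

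Genes that overlap these 10 on the opposite strand were counted separately in the table, and the strand setting of the counting is not given in the sources used here. NUDT6, the antisense partner of FGF2 over 9540 bases, had 334, 342 and 352 counts in HG-NC against 345, 367 and 302 in HG-OE. NUDT6 was not called (log2 fold change -0.14, edgeR adjusted p = 0.230), nor was SPRY4-AS1 across from FGF1 (-0.56, edgeR adjusted p = 0.144). LETM2 across from FGFR1 rose by 0.23 (edgeR adjusted p = 0.0218). ENSG00000273007, a long noncoding RNA within FGF2, had 9 to 24 counts and was not called (-0.28). CFAP299, ENSG00000263301, ENSG00000272884, ENSG00000272159, ENSG00000255201 and RPS20P22, which overlap FGF5, FGF11 or FGFR1, had at most 20 counts in any library.

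The 3 protein-coding genes with profiles most like FGF2 were RNF144B, CDKN2AIP and SEC14L1. The measure was the root mean square difference of log2 CPM, each gene centred on its HG-NC mean, over the 6 libraries and among 11561 candidates, and it came to 0.0505, 0.0520 and 0.0533. RNF144B, a ubiquitin ligase, fell from 283 ± 0.341 to 122 ± 16.0 CPM (mean ± SD, n = 3), with its lowest level in HG-OE replicate 3, as in FGF2. CDKN2AIP and SEC14L1 had log2 fold changes of -1.24 and -1.20.

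Around these 10 genes, 8 lists of FGF pathway genes held 100 genes, of which 78 were tested. Of these, 25 were called higher, 24 lower and 29 were not called, which is 62.8% called against 51.8% of all genes tested. Changes were small for most, with 2 genes called 2-fold higher and 1 lower and a median log2 fold change of -0.041. The counts of each list below stand beside 25.9% called higher and 25.9% called lower among all genes tested. Each list held few genes, and no list was tested as a set. HNRNPF, the overexpressed gene, is among the 25 called higher.

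**Figure D5:**
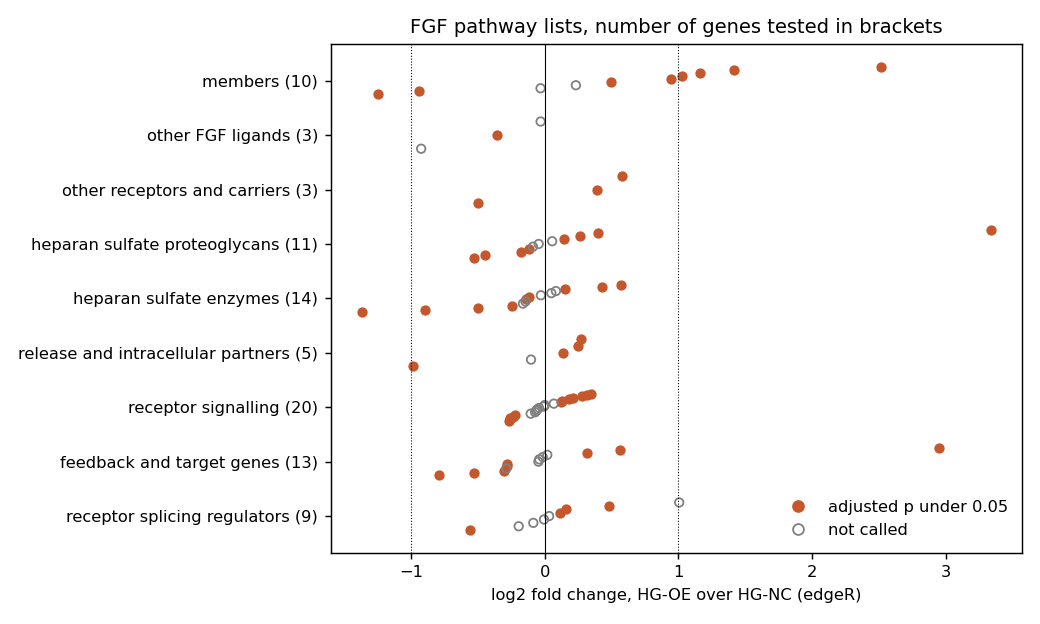
Log2 fold change of HG-OE over HG-NC (x axis, edgeR) for every tested gene of the 10-gene set and of the 8 pathway lists, filled where the adjusted p was under 0.05. Most pathway genes lie within a 2-fold change (dotted lines), and the points furthest to the right in the lists are GPC3 (3.34) and DUSP4 (2.95), whose rises rested on HG-OE replicate 3.

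Of 17 other FGF ligands, 3 could be tested. FGF12, another intracellular homologous factor, fell by 0.36 on the log2 scale (edgeR adjusted p = 0.00305), while the other two tested were not called. FGF19, the bile acid-responsive hormone, had 25 counts in HG-OE replicate 3 and 0 in the other 5 libraries, which allows up to 3 counts in each. FGF14 had 0, 1 and 0 counts in HG-NC against 5, 9 and 11 in HG-OE and was too low to test. FGF19 and FGF14 were chosen after their values were seen.

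All 3 tested genes among other receptors and carriers were called, a small number to set beside the 51.8% called of all genes tested. FGFRL1, a receptor without a kinase domain, rose by 0.57, from 943, 949 and 1000 counts in HG-NC to 1524, 1544 and 1616 in HG-OE (edgeR adjusted p = 6.25e-07). KL, the Klotho co-receptor, which is named after its values were seen, had 412, 370 and 437 counts against 551, 632 and 557, with log2 fold change 0.39. FGFBP3, a relative of FGFBP1, fell by 0.50 (edgeR adjusted p = 0.0461), and was not called without HG-OE replicate 3, at -0.41 (95% confidence interval -0.83 to 0.010). KLB, chosen after its values were seen, had 171 counts in HG-OE replicate 3 and at most 1 in each of the other 5 libraries.

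Among 11 tested heparan sulfate proteoglycans, 4 were called higher and 4 lower (3 higher and 5 lower without HG-OE replicate 3). GPC3, a glypican of fetal liver, had 41, 40 and 29 counts in HG-NC against 29, 20 and 1171 in HG-OE. Its log2 fold change was 3.34 (edgeR adjusted p = 0.0218) with all libraries and -0.70 without HG-OE replicate 3. GPC2 had the largest fall with all libraries, -0.53. Without HG-OE replicate 3, the called fall of HSPG2 was larger, at -0.63 (edgeR adjusted p = 8.23e-18) against -0.52 for GPC2. With all libraries HSPG2 was at -0.45.

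The enzymes that build and modify heparan sulfate held 3 genes called higher and 6 lower of 14 tested, with a median log2 fold change of -0.13. HS3ST1, a 3-O-sulfotransferase, had 190, 220 and 265 counts in HG-NC against 81, 88 and 115 in HG-OE. The groups lay apart, and HS3ST1 was the pathway gene called 2-fold lower, at -1.36 (standard error 0.152, edgeR adjusted p = 5.61e-06). EXTL3, a glycosyltransferase that starts the chain, had the largest rise, 0.57.

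Of the 5 partners in FGF release or in the cell, 3 were called higher and 1 lower. SYT1, whose product takes part in the release of FGF1, had 674, 661 and 710 counts in HG-NC against 391, 396 and 335 in HG-OE, with log2 fold change -0.99 (edgeR adjusted p = 3.68e-07). SYT1 thus fell while FGF1 rose.

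The 20 genes of receptor signaling were all tested, and all changed by less than 0.35 on the log2 scale. They held 7 genes called higher and 5 lower. PLCG1, the phospholipase C gamma bound by FGF receptors, had the largest rise (0.34, edgeR adjusted p = 1.32e-05), and CBL, a ubiquitin ligase that acts on receptors, the largest fall (-0.27, edgeR adjusted p = 0.00180).

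Of 13 feedback and target genes, 3 were called higher and 5 lower (2 higher and 5 lower without HG-OE replicate 3). DUSP5, a nuclear phosphatase of ERK, had 3920, 4037 and 4253 counts in HG-NC against 2610, 2653 and 2412 in HG-OE, the largest fall at -0.79 (edgeR adjusted p = 1.40e-08). DUSP4, another nuclear phosphatase, was called 2-fold higher at 2.95 (edgeR adjusted p = 0.0207), with 13, 16 and 10 counts in HG-NC against 9, 18 and 305 in HG-OE. Its log2 fold change was -0.063 when HG-OE replicate 3 was left out. Of the other inhibitors called, SPRY2, SPRED3 and SPRED2 fell by 0.53, 0.30 and 0.28, while IL17RD and DUSP6 rose by 0.57 and 0.31. These were chosen after their values were seen. Inhibitors of the cascade thus moved in both directions. Without HG-OE replicate 3, SPRED3 was not called (-0.22, edgeR adjusted p = 0.0631), while SPRY1 was called lower (-0.42, edgeR adjusted p = 0.00476).

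Among regulators of receptor splicing, 9 were tested, 3 of which were called higher and 1 lower (3 higher and 3 lower without HG-OE replicate 3). Among those called with all libraries, HNRNPF itself had the largest rise, and HNRNPH1, its close relative, the largest fall. HNRNPH1 went from 5338, 5881 and 6245 counts to 4133, 3998 and 4736 (log2 fold change -0.56, edgeR adjusted p = 1.77e-06). ESRP1, which sets the epithelial splice form of FGFR2, was not called, with 42, 22 and 28 counts in HG-NC against 9, 16 and 178 in HG-OE, and is named after its values were seen. Its log2 fold change was 1.01 with all libraries, while without HG-OE replicate 3 it was called lower, at -1.41 (edgeR adjusted p = 0.00228), as was ESRP2, its relative, at -0.31.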

How the data were processed

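Poly(A) RNA of 6 HK-2 cultures was sequenced with a directional kit. According to the methods, reads were trimmed and mapped by HISAT2 on GRCh38, and the authors counted those that mapped uniquely; the counter, its annotation and its strand setting are not given in the sources used here. The deposited counts are whole numbers per gene, and the authors also deposited FPKM, rounded to 2 decimals. A batch correction (ComBat_seq) is named in the methods without saying whether it entered the counts. Mannitol libraries were not analysed here.

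The main test was that of edgeR 4.0.16 in R 4.3.3 (TMM, default low-count filter, quasi-likelihood test, Benjamini-Hochberg over 17142 genes, no covariate), and the script was tested on simulated data. Genes with an adjusted p under 0.05 were called, and called 2-fold where the change was also at least 2-fold. DESeq2 1.42.0, the authors' tool, and limma 3.58.1 on log2(FPKM + a pseudocount of 1 or 0.1) were alternatives, beside other scaling and filters, each library left out, a replicate block and removal of the neighbours' median within 10 Mb. Positions come from GENCODE release 44. Intervals and the limit of 3 counts cover counting error only where they rest on counts of 1 library.

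The 10 genes and all lists were chosen with earlier results of these data known, and the lists were written from general knowledge. Named beside the 10 genes were HNRNPF, genes that overlap one of them, the called gene with the largest rise and with the largest fall and any called 2-fold of each pathway list, and the 3 protein-coding genes (mean of at least 100 counts) most like the member with the smallest adjusted p. Other genes named, marker genes among them, were chosen after their values were seen. A gene that the rule names is not reported here.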

Additional observations from a re-analysis of the deposited data

How the results depend on the processing

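FGF1, FGF2, FGF11, FGFR1 and FGFBP1 kept their direction in all 15 alternatives and their call in the 14 that retested it (removal of the neighbours' median kept the p), with log2 fold changes of 0.58 to 1.20, -1.30 to -0.88, 0.51 to 1.07, 0.75 to 1.09 and 1.11 to 2.76; the lowest sizes came from log2(FPKM + 1), which understates low genes, and for FGF2 from the neighbours' median. FGF5 stayed called in 10 of these 14, FGFR3 in 7 and FGFR4 in 6. FGFR2, which was not called, turned to 0.11 without HG-NC replicate 2 and 0.094 without HG-OE replicate 2 (-0.13 to 0.11 with each library left out). Removal of the neighbours' median turned FGFR2 to 0.083 and FGF18 to -0.23.

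With limma on log2(FPKM + 1), log2(FPKM + 0.1) and log2(FPKM + 1) without a filter, 1 gene of the 10 was called lower each time, 1, 2 and 1 were called 2-fold higher, and 16, 15 and 15 pathway genes were called higher in place of 25. With the neighbours' median removed, 0 were called 2-fold lower and 4 higher, FGF11 among them and FGF1 not. With no fold threshold, 2 were lower. Leaving out each library in turn gave 4 to 6 genes called higher, 1 to 2 lower, 3 to 4 called 2-fold higher and 1 to 2 called 2-fold lower. FGF5 passed 2-fold without HG-NC replicate 1 (-1.03), HG-OE replicate 1 (-1.16) or HG-OE replicate 2 (-1.07), and FGF11 without HG-NC replicate 1 (1.07). The cause was not tested.

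Deviations of libraries with the same replicate number correlated at -0.027, 0.030 and -9.93e-04, so the numbers did not pair the samples. With the replicate number as a block, 6 genes were called higher and 2 lower, 4 and 1 of them 2-fold, which changed no call among the 10, and 8849 of 17142 genes were called against 8887. Counts of 12 to 60 in FGF5, FGF18 and the HG-NC libraries of FGFBP1 limit their precision.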
